A study of Mus musculus with 2 samples.

Results

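Neutrophil-rich spots were spots of 2 Visium CytAssist sections of mouse pancreatic tumors in which S100a8 and S100a9 together took at least 500 of every 1000000 UMIs. S100a8 and S100a9 encode the subunits of calprotectin, a calcium-binding protein that makes up much of the cytosol of a neutrophil. The spots were chosen by these measured values, so the levels of S100a8 and S100a9 in them describe the choice and are not a result. A spot covers a patch of tissue that may contain cells of more than 1 type, and each spot counts unique molecular identifiers (UMIs) of probes bound to the RNA beneath it. Levels are given as UMIs of a gene per 1000000 UMIs of the same spots (CPM). Spots also needed at least 10000 UMIs, and spots with over 2% of their UMIs from the acinar genes Cpa1, Ctrb1, Prss2, Pnlip and Cela2a were left out. In total 457 of 5772 spots (7.92%) qualified. They were set against the spots of the same library with at least 10000 UMIs and under 100 CPM of S100a8 and S100a9, called comparison spots.

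The study knocked down the transcription factor ZEB1 in KPC cells, a line from pancreatic tumors of genetically engineered mice that carry Pdx-1-Cre, which acts in the pancreas. KPC-shV cells carry the control vector and KPC-shZEB1 cells the knockdown construct, both as stable lines, and each was injected into the pancreas of mice. Gemcitabine treatment of these tissues is named in the paper but not in the labels. Tissue of 2 tumors per group was used, and nothing maps a spot to its tumor. Each matrix was therefore read as 1 sample, the libraries had no replicates, no test was possible, and every interval below is a 95% exact interval for counting error alone.

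Neutrophils are short-lived granulocytes made in the bone marrow under the growth factor G-CSF. They leave the blood along chemokines that bind the receptor CXCR2, and they carry preformed antimicrobial proteins in granules. In pancreatic tumors they are often drawn to poorly perfused and dying tissue, and they can dampen T cell responses. Oxygen shortage switches on genes of glucose uptake, glycolysis and vessel growth through the factor HIF-1, whose core binding letters are ACGTG.

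The KPC-shV library held 172059528 UMIs in 3552 spots, against 140493626 UMIs in 2220 spots for the library labelled KPC-shZEB1. In KPC-shV, 440 spots were neutrophil-rich, which is 12.4% of all spots (interval 11.3% to 13.5%), out of 2857 spots that passed the depth and acinar limits. In the library labelled KPC-shZEB1, 17 spots were neutrophil-rich, 0.766% of all spots (0.447% to 1.22%), out of 1349 spots that passed. The sections also differed in what could qualify, since the acinar limit removed 305 spots of KPC-shV, 1 of them at 500 CPM or more, and 858 spots of the library labelled KPC-shZEB1, 3 of them at 500 CPM or more. There were 1237 comparison spots in KPC-shV and 986 in the library labelled KPC-shZEB1, and 1180 and 346 further spots lay between the limits. The neutrophil-rich spots held 39.4% of all S100a8 and S100a9 UMIs of KPC-shV and 10.6% of those of the library labelled KPC-shZEB1. A share of spots does not separate fewer neutrophils from less RNA in each of them.

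Neutrophil-rich spots were shallower than the comparison spots. Their UMI counts in KPC-shV ran from 10486 to 99698 with a median of 32162, against a median of 62638 in the comparison spots, and in the library labelled KPC-shZEB1 the medians were 39209 and 58340. Of the barcodes, 1718 occurred in both libraries, 7 of the 17 neutrophil-rich spots labelled KPC-shZEB1 had a barcode also seen in KPC-shV, and 2 of these were neutrophil-rich in both. Barcodes name positions on a slide, and the rank correlation of UMIs over the shared barcodes was -0.08.

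The knockdown target Zeb1 was low throughout. In KPC-shV it was read at 9.04 CPM in neutrophil-rich and 16 CPM in comparison spots, a log2 ratio of -0.82 (-1.08 to -0.56). The levels labelled KPC-shZEB1 were 11.5 CPM, from 8 UMIs, and 16.4 CPM. Between libraries the log2 ratio, labelled KPC-shZEB1 over KPC-shV, was 0.34 (-0.90 to 1.36) in neutrophil-rich spots and 0.04 (-0.08 to 0.17) in comparison spots. Zeb1 was thus not lower in the spots labelled as knockdown, and stromal cells of the host can express Zeb1 as well, so the library is named here by its label.

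S100a8 (ENSMUSG00000056054) and S100a9 (ENSMUSG00000056071) lie on chromosome 3 of GRCm38, at 90668978 to 90670035 and 90692632 to 90695721. The chosen level ran from 500 to 9975 CPM per spot in KPC-shV, with a median of 962 CPM, and from 506 to 3544 CPM (median 853 CPM) in the library labelled KPC-shZEB1. S100a8 averaged 350 CPM and S100a9 712 CPM over the neutrophil-rich spots of KPC-shV, and 567 and 550 CPM over those labelled KPC-shZEB1. The highest spots below the limit reached 497 and 491 CPM. The limit did not mark a break, because in KPC-shV the 38 spots just inside it, at 500 to 550 CPM, had 242 CPM of a 14-gene neutrophil identity list and 3065 CPM of the hypoxia list, against 277 and 2320 CPM in the 45 spots just outside it, at 450 to 500 CPM.

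**Figure D1:**
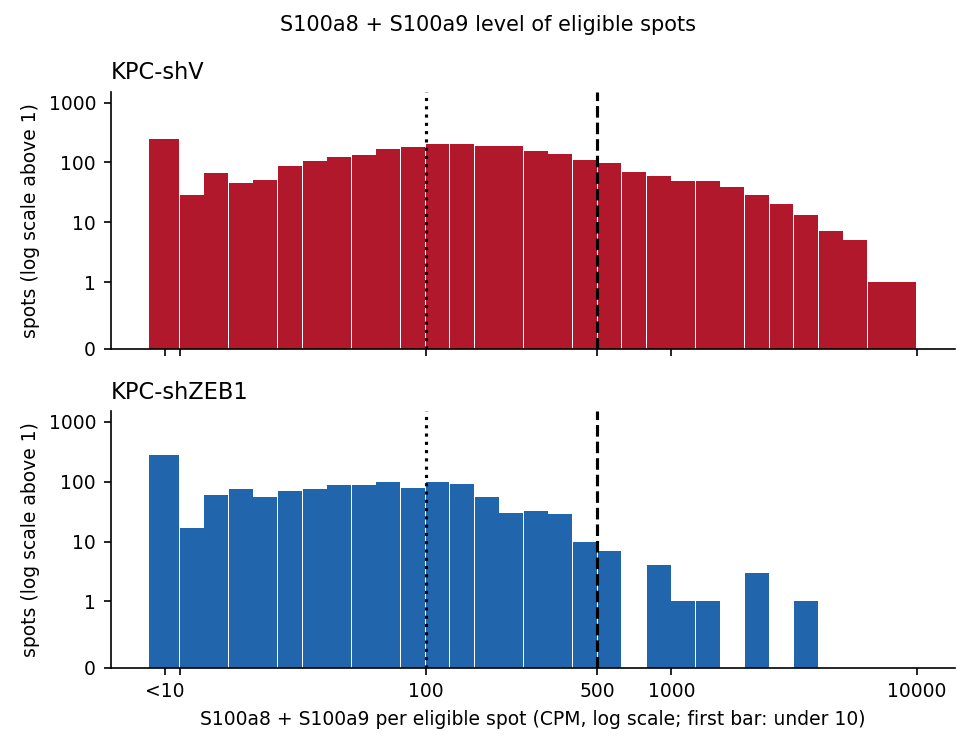
Number of spots (y axis, logarithmic above 1) by summed S100a8 and S100a9 level (x axis, CPM, logarithmic) in each library, with the limits at 100 and 500 CPM drawn as lines. The counts of KPC-shV fall away without a gap at 500 CPM, and 440 spots of KPC-shV but 17 of the library labelled KPC-shZEB1 lie at or above it.

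The other neutrophil markers were higher in the chosen spots of both libraries. Csf3r (ENSMUSG00000028859, chromosome 4, 126024550 to 126044440), the receptor for G-CSF, was read at 116 CPM in neutrophil-rich and 24.0 CPM in comparison spots of KPC-shV, a log2 ratio of 2.27 (2.17 to 2.36). Its levels in the library labelled KPC-shZEB1 were 90.3 and 26.9 CPM, a log2 ratio of 1.74 (1.36 to 2.11). Cxcr2 (chromosome 1, 74153989 to 74161246), the chemokine receptor, was read at 26.3 and 5.62 CPM in KPC-shV and at 27.2 and 6.24 CPM in the library labelled KPC-shZEB1. Its log2 ratios were 2.23 (2.03 to 2.43) and 2.12 (1.38 to 2.79). The lipase inhibitor gene G0s2 (chromosome 1, 193272161 to 193273217) had the largest log2 ratio of the markers in KPC-shV, 3.57 (3.38 to 3.75), from 56.4 against 4.77 CPM. It was read at 28.7 against 6.52 CPM in the library labelled KPC-shZEB1, but no G0s2 UMI was found in the 4 spots there with 2000 CPM or more of S100a8 and S100a9, where Csf3r was at 142 CPM and macrophage genes at 8614 CPM. In KPC-shV the name of the spots thus rests on 3 markers that the choice did not use. In the library labelled KPC-shZEB1 the name is less secure, because only 3 of 17 spots taken by these markers were also neutrophil-rich (17.6%).

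Over the whole neutrophil identity list, which also holds Il1r2, Retnlg, Hdc, Trem1, Cd177 and receptors for formyl peptides, the summed level was 454 CPM against 109 CPM in KPC-shV, a log2 ratio of 2.06 (2.01 to 2.11), and 441 against 164 CPM in the library labelled KPC-shZEB1, a log2 ratio of 1.43 (1.26 to 1.59). The latter ratio was 0.75 with spots thinned to 10000 UMIs and 2.39 without the acinar limit. In KPC-shV, 13 of the 14 genes were above their comparison level, beside 48.9% of all genes with at least 50 CPM. The median gene of the list stood at a log2 ratio of 2.25. The 2-fold counts cover genes with at least 50 CPM in either kind of spot, of which 170 of 5021 were higher, a background of 3.39%. All 4 genes of the list that met this limit did so through the neutrophil-rich spots alone, so nothing is read from their count. The decoy receptor gene Il1r2 was at 61.2 against 12.7 CPM and the matrix protease gene Mmp9 at 78.7 against 31.7 CPM. The exception was Ly6g, the classical surface marker of mouse neutrophils, at 3.58 and 3.64 CPM, a log2 ratio of -0.02 (-0.47 to 0.40), and its level stayed between 3.27 and 3.64 CPM across all ranges of S100a8 and S100a9 in KPC-shV. In the library labelled KPC-shZEB1, 14 of 14 genes were above their comparison level, beside 44.4% of all genes at 50 CPM. There 1 of the 2 list genes at 50 CPM met that limit through the neutrophil-rich spots alone (background 2.91%, 146 of 5023 genes).

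After each spot was thinned to 10000 UMIs, Csf3r was detected in 68.9% of neutrophil-rich spots of KPC-shV (64.3% to 73.2%) and in 23.4% of comparison spots (21% to 25.8%). The unthinned shares were 95.9% and 66.9%. In the spots left out for acinar genes, where little Csf3r should be made, the thinned share was 17.7% (13.6% to 22.5%), with a median depth of 25952 UMIs. For Cxcr2 the thinned shares were 26.4%, 6.87% and 4.92%, and for G0s2 they were 43.0%, 5.01% and 20.3%, so that G0s2 was also seen in acinar tissue. The comparison spots were therefore close to the acinar level for Cxcr2 and the neutrophil-rich spots well above it. After thinning, 9 of the 17 neutrophil-rich spots labelled KPC-shZEB1 had a Csf3r UMI, 52.9% (27.8% to 77.0%), against 25.2% of comparison spots and 8.86% of the spots left out for acinar genes.

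Within KPC-shV the neutrophil identity level followed the chosen level across its whole range. It was 109 CPM in spots under 100 CPM of S100a8 and S100a9, 172 CPM at 100 to 500 CPM, 313 CPM at 500 to 1000 CPM, 599 CPM at 1000 to 2000 CPM and 1094 CPM at 2000 CPM or more. Csf3r followed the same order, at 24.0, 38.1, 74.9, 154 and 308 CPM. The rank correlation of the 2 quantities over the 440 spots was 0.75, and both correlated with depth, at -0.67 for the chosen level and -0.65 for the identity list. The part of depth in this relation was not tested. The median depth per range was 62638, 64165.5, 45528, 26657 and 17167 UMIs.

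**Figure D2:**
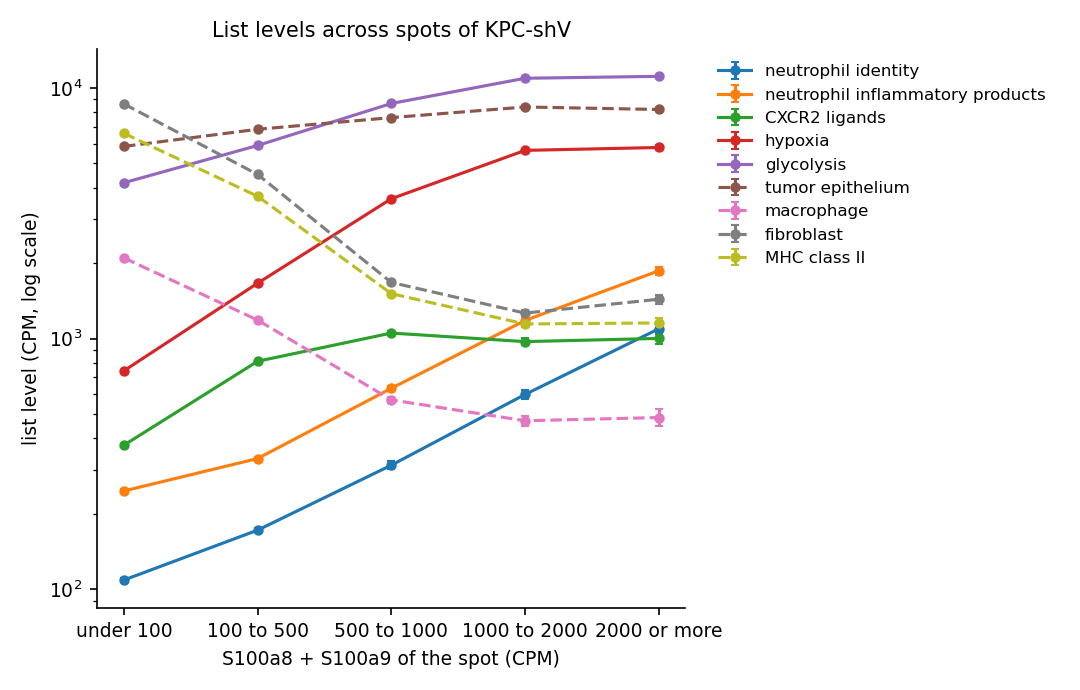
Summed level of gene lists (y axis, CPM, logarithmic) in spots of KPC-shV grouped by S100a8 and S100a9 level (x axis, CPM), with exact Poisson intervals as error bars. The neutrophil identity list climbs through every range, from 109 to 1094 CPM, the hypoxia list climbs from 744 to 5787 CPM, and the macrophage list drops from 2099 to 484 CPM.

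Genes of the granule contents differed in how far they stood apart. Lcn2, the iron-sequestering lipocalin, was at 536 against 260 CPM in KPC-shV (log2 ratio 1.04, 1.0 to 1.08) and at 474 against 221 CPM in the library labelled KPC-shZEB1. Ltf, which encodes lactoferrin, was at 434 against 155 CPM in KPC-shV but at 113 against 107 CPM in the library labelled KPC-shZEB1, a log2 ratio of 0.08 (-0.26 to 0.40). Both can also be made by epithelium. Padi4, the enzyme that citrullinates histones in neutrophils, did not stand apart, at 130 against 136 CPM in KPC-shV. The summed list of 10 granule genes was at 1136 against 562 CPM in KPC-shV. Over the 440 spots this sum showed no relation to the chosen level (rank correlation -0.02), unlike the identity list. Lcn2, Ltf and Padi4 made up most of it. The scarce genes Elane, Mpo, Prtn3, Ctsg, Camp, Ngp and Mmp8 were higher at the top of the chosen level. From spots at 500 to 1000 CPM to those at 2000 CPM or more, Elane went from 2.25 to 16.1 CPM and Mmp8 from 11.2 to 17.6 CPM.

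Camp and Ngp, granule genes that maturing neutrophils express, were scarce and concentrated in a few spots. They were at 5.98 and 3.25 CPM in the neutrophil-rich spots of KPC-shV and at 125 and 128 CPM in those labelled KPC-shZEB1, while their comparison levels were under 1 CPM in both libraries. Of the 349 Camp and Ngp UMIs in the whole library labelled KPC-shZEB1, 176 lay in the neutrophil-rich spots and 155 of these in 4 spots, with 62 in 1 spot. In KPC-shV, 142 of 326 UMIs lay in neutrophil-rich spots, 102 of them in 4 spots. The 11 neutrophil-rich spots of KPC-shV with at least 50 CPM of Camp and Ngp also had 3989 CPM of the hemoglobin gene Hbb-bs and 8052 CPM of fibroblast genes, against 83.9 and 1553 CPM over all 440 spots. The part of blood in these values was not tested. The azurophil granule genes Elane and Mpo, used earliest in maturation, were at 4.29 against 1.35 CPM and 3.97 against 0.826 CPM in KPC-shV. In the neutrophil-rich spots labelled KPC-shZEB1 they were at 22.9 CPM, from 16 UMIs, and 18.6 CPM, from 13 UMIs, against 1.74 and 1.51 CPM, and in the 4 spots with the highest S100a8 and S100a9 they reached 103 and 71.0 CPM.

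A list of products that activated neutrophils can make was higher in the chosen spots of both libraries. The summed list of 10 genes was at 880 against 247 CPM in KPC-shV, a log2 ratio of 1.83 (1.80 to 1.87), and at 841 against 253 CPM in the library labelled KPC-shZEB1, a log2 ratio of 1.73 (1.61 to 1.85). Of the 6 genes at 50 CPM in KPC-shV, 4 met that limit through the neutrophil-rich spots alone, as did 2 of 4 in the library labelled KPC-shZEB1, so nothing is read from the 2-fold count of this list. Ptgs2, the inducible cyclooxygenase, was at 236 against 58.1 CPM in KPC-shV, and the cytokine gene Il1b was at 204 against 59.7 CPM. Ccl3 and Ccl4, chemokines for monocytes and T cells, had log2 ratios of 3.60 (3.39 to 3.82) and 3.32 (3.17 to 3.47) in KPC-shV and of 2.95 (2.27 to 3.57) and 2.03 (1.47 to 2.54) in the library labelled KPC-shZEB1. Acod1, which makes itaconate, was at 79.7 against 11.1 CPM in KPC-shV and at 182 against 35.0 CPM in the library labelled KPC-shZEB1. Cd274, which encodes PD-L1, the ligand that restrains T cells through PD-1, was at 124 against 48.7 CPM and at 206 against 75.3 CPM, with log2 ratios of 1.35 (1.27 to 1.43) and 1.45 (1.20 to 1.69). For Tnf and Olr1 the intervals of the log2 ratio covered 0 in both libraries. Against comparison spots of KPC-shV weighted to a like hypoxia level, the genes of the list ran from -0.05 for Olr1 to 3.06 for Ccl4. Il1a, also on the list, was then at 0.32 and Ptgs2 at 1.05. Macrophages can make most of these products too, and the macrophage list, which was lower in these spots of KPC-shV and higher in those labelled KPC-shZEB1, is given further on. Which cells made these products was not tested.

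The subunits of the phagocyte NADPH oxidase did not follow the neutrophil markers in KPC-shV, where their summed log2 ratio was -0.50 (-0.53 to -0.47), but against comparison spots weighted to a like hypoxia level it was 0.11. Cybb, the catalytic subunit shared by neutrophils and macrophages, was at 36.7 against 132 CPM in KPC-shV, a log2 ratio of -1.85 (-1.97 to -1.72), and at 447 against 198 CPM in the library labelled KPC-shZEB1, a log2 ratio of 1.18 (1.01 to 1.34). Ncf1, a cytosolic subunit, went with it at -0.71 (-0.80 to -0.62) and 0.87 (0.65 to 1.09). Among genes of leukocyte adhesion in KPC-shV, Itgam, carried by neutrophils, had a log2 ratio of 1.17 (1.06 to 1.28), while the shared integrin chain gene Itgb2 stood at -0.54 (-0.62 to -0.46) and Vcam1 and Icam1, displayed by vessels and stroma, at -0.84 and -0.75. In the library labelled KPC-shZEB1, 8 of the 8 adhesion genes were above their comparison level, beside 44.4% of all genes at 50 CPM. The summed adhesion list of KPC-shV turned from -0.34 to 0.47 with the hypoxia weighting, and the calprotectin receptor list from -0.50 to 0.30. The latter list also holds the adaptor gene Myd88, which encodes no receptor. Myd88 gave 52.9 of its 79.3 CPM in neutrophil-rich spots of KPC-shV and 155 of 262 CPM in those labelled KPC-shZEB1. Of the receptors that bind calprotectin, Tlr4 and Ager had intervals that covered 0 in KPC-shV, and Tlr4 stood at 0.95 (0.10 to 1.68) in the library labelled KPC-shZEB1.

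The chemokines that bind CXCR2 were higher in the same spots as the receptor. Cxcl5 was at 669 CPM in neutrophil-rich and 276 CPM in comparison spots of KPC-shV (log2 ratio 1.28, 1.24 to 1.31), Cxcl3 at 201 and 28.4 CPM (2.82, 2.74 to 2.90), and Cxcl1 at 159 and 71.3 CPM (1.16, 1.09 to 1.23). Cxcl1, Cxcl3 and Cxcl5 are neighbours on chromosome 5 (GRCm38, 90759360 to 90893115). Cxcl5 was at 254 against 126 CPM in the library labelled KPC-shZEB1, Cxcl3 at 117 against 34.8 CPM and Cxcl1 at 50.1 against 29.5 CPM. Each of the 3 ligands was thus above its comparison level in both libraries, beside 48.9% of all genes at 50 CPM in KPC-shV and 44.4% in the other. The summed log2 ratio of the ligands in KPC-shV was 1.45. It was 0.79 against all other eligible spots, and 0.71 and 2.12 with comparison spots weighted by hypoxia and by depth. Across the ranges of the chosen level in KPC-shV, Cxcl3 climbed from 28.4 to 421 CPM, whereas Cxcl5 was highest at 500 to 1000 CPM, with 740 CPM, and lower at 2000 CPM or more, with 426 CPM. Over the 440 spots the summed ligands had no relation to the chosen level (rank correlation 0.00). In the library labelled KPC-shZEB1 the ligands came from few spots: the highest spot had 1576 CPM and the median spot 121 CPM, against a median of 115 CPM in comparison spots. The 6 spots with at least 1000 CPM of S100a8 and S100a9 there had a lower ligand level than the comparison spots, a log2 ratio of -1.81.

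Of the cytokines that drive neutrophil production, Csf3, which encodes G-CSF, was at 27.2 against 20.4 CPM in KPC-shV (log2 ratio 0.42, 0.26 to 0.57), and Csf2, which encodes GM-CSF, was at 75.5 against 57.5 CPM (0.39, 0.30 to 0.49). In the neutrophil-rich spots labelled KPC-shZEB1, Csf3 was at 4.30 CPM, from 3 UMIs, and Csf2 at 15.8 CPM, from 11 UMIs. Il17a was at 0.91 CPM in the neutrophil-rich spots of KPC-shV, from 14 UMIs, and Il6 at 1.89 CPM. NF-kB feedback genes, which report inflammatory signaling, were at 807 against 427 CPM in KPC-shV and at 663 against 416 CPM in the library labelled KPC-shZEB1, led by Nfkbia with log2 ratios of 1.45 (1.41 to 1.5) and 1.09 (0.88 to 1.29).

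Spp1, which encodes osteopontin, and its receptor gene Cd44 were at similar levels in both kinds of spot in KPC-shV. Spp1 was at 7654 against 7313 CPM (log2 ratio 0.07) and Cd44 at 1370 against 1349 CPM (0.02, 0.00 to 0.04). These sums hid a spread over the neutrophil-rich spots. At 500 to 1000, 1000 to 2000 and 2000 CPM or more of S100a8 and S100a9, Spp1 was at 8321, 6577 and 5687 CPM. Cd44 was at 1324, 1410 and 1599 CPM in the same ranges. Spp1 was at 6015 against 7163 CPM in the library labelled KPC-shZEB1, and Cd44 at 925 against 961 CPM. Spp1 was not even over the neutrophil-rich spots there, at 8098 CPM in the 11 spots with 500 to 1000 CPM of S100a8 and S100a9, 1308 CPM in the 2 spots with 1000 to 2000 CPM and 761 CPM in the 4 spots above. Among the integrins that bind osteopontin, Itgav was at 379 against 207 CPM in KPC-shV and Itga4, an integrin of lymphocytes and monocytes, at 3.45 against 17.2 CPM. Cxcl16, the transmembrane chemokine that binds CXCR6, was at 396 against 482 CPM in KPC-shV and at 536 against 467 CPM in the library labelled KPC-shZEB1, log2 ratios of -0.28 (-0.32 to -0.24) and 0.20 (0.05 to 0.34).

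Genes of the hypoxia response stood apart further than the neutrophil genes did in KPC-shV. Their summed level was 4305 CPM in neutrophil-rich and 744 CPM in comparison spots, a log2 ratio of 2.53 (2.52 to 2.55), and 10 of 10 genes were at least 2-fold higher, beside 3.39% of all genes, of which 4 were under 50 CPM in the comparison spots. Egln3, an oxygen-sensing prolyl hydroxylase, was at 1175 against 169 CPM, and Slc2a1, the glucose transporter GLUT1, was at 875 against 150 CPM. The oxidase gene Ero1l was at 515 against 77.9 CPM, Vegfa, the vessel growth factor, at 472 against 88.6 CPM, and Ndrg1 at 395 against 58.3 CPM. The peptide hormone gene Adm had the largest log2 ratio of the list, 3.51 (3.37 to 3.65). Per spot the list ran from 195 to 13047 CPM with a median of 5081 CPM in the neutrophil-rich spots, and 97.0% of them lay above the median of the comparison spots, 484 CPM. The groups overlapped, since the highest comparison spot had 7420 CPM.

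The 250 bases before the RefSeq start of S100a8 (chr3:90668821-90669070, plus strand), S100a9 (chr3:90695722-90695971, minus strand), Egln3 (chr12:54203875-54204124, minus strand) and Slc2a1 (chr4:119108495-119108744, plus strand) are shown from the GRCm38.p6 assembly, the chosen pair first and then 2 genes of the hypoxia list, picked after their values were seen. Capitals mark ACGTG or its reverse complement CACGT.
S100a8: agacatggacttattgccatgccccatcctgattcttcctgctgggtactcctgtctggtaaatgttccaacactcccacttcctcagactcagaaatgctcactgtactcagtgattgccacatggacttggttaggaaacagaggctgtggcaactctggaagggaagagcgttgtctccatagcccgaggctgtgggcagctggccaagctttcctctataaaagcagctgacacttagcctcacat
S100a9: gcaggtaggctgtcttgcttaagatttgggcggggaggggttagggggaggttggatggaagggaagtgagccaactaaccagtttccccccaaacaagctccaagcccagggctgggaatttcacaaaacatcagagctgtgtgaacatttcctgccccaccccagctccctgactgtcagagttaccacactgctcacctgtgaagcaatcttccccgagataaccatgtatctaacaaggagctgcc
Egln3: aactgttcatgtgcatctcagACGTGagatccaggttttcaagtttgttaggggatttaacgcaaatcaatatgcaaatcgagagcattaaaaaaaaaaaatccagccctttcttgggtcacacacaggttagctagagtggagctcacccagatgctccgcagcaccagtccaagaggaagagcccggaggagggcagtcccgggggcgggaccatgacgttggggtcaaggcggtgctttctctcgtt
Slc2a1: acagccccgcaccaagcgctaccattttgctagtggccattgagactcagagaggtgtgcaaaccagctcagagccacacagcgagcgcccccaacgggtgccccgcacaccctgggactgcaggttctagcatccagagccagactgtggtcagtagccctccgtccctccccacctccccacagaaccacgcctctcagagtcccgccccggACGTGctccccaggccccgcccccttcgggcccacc
The letters occurred once each before Egln3 and Slc2a1 and not before S100a8 or S100a9. On both strands of this window they occurred before 7 of the 9 hypoxia genes with an entry (77.8%), 2 of 13 neutrophil identity genes (15.4%), Cxcl1 and Cxcl3, and 3215 of all 15254 measured genes with an entry (21.1%). A match of these letters describes the sequence and shows neither a site in use nor a cause of the levels.

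Glycolysis genes went with the hypoxia genes in KPC-shV. The list was at 9444 against 4186 CPM, a log2 ratio of 1.17 (1.16 to 1.18), with 6 of 8 genes at 50 CPM at least 2-fold higher (background 3.39%), among them Aldoa at 2837 against 1218 CPM and Pgk1 at 1272 against 454 CPM. Over the 440 spots the hypoxia and glycolysis lists had a rank correlation of 0.90. Hypoxia correlated with UMIs at -0.50 and glycolysis at -0.43, and the part of depth was not tested. The stress response list was at 464 against 241 CPM, a log2 ratio of 0.94. Beside 48.9% of all genes at 50 CPM, 5 of its 6 genes were above their comparison level, with a median gene at 0.45. Of these genes Ddit3 and Atf3, both transcription factors, were at 163 against 45.6 CPM and 131 against 42.5 CPM. The proliferation list was lower, at 619 against 924 CPM. Its 4 of 4 genes were below their comparison level, while 48.9% of all genes at 50 CPM were above theirs.

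The share of spots that were neutrophil-rich differed widely with the hypoxia level in KPC-shV. It was 1.5% of 931 spots under 500 CPM of hypoxia genes, 1.67% of 658 spots at 500 to 1000 CPM, 7.77% of 412 spots at 1000 to 2000 CPM, 23.0% of 421 spots at 2000 to 4000 CPM and 65.7% of 435 spots at 4000 CPM or more (61.1% to 70.2%). Of the 440 neutrophil-rich spots, 286 (65.0%) lay in the highest range. The library labelled KPC-shZEB1 had only 20 spots in that range, of which 3 were neutrophil-rich (15%, 3.21% to 37.9%). At 2000 to 4000 CPM it had 64 spots with 0 neutrophil-rich, which allows a share of up to 5.60%, and in the lower ranges the shares were 1.09%, 1.22% and 0.80%. In spots under 1000 CPM of hypoxia genes the shares of both libraries were therefore between 1.09% and 1.67%, and their intervals overlapped. Median depth in KPC-shV was 34029 UMIs in the highest range and between 58844 and 65454 UMIs in the others.

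**Figure D3:**
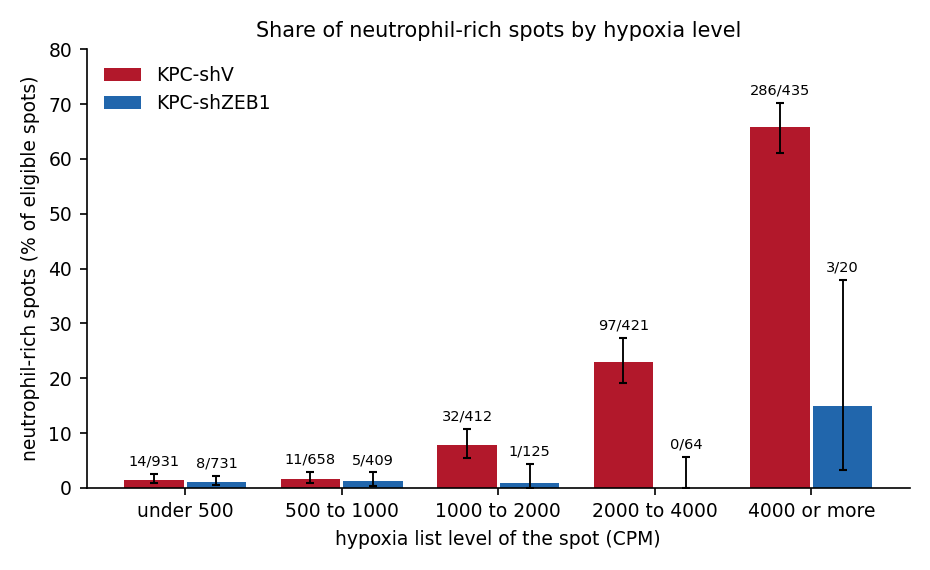
Share of neutrophil-rich spots (y axis, percent of the spots that passed the depth and acinar limits) by summed hypoxia level (x axis, CPM) in each library, with exact binomial intervals as error bars. KPC-shV climbs from 1.5% to 65.7%, and the library labelled KPC-shZEB1 is near 1% up to 2000 CPM and has wide intervals above it, with 20 spots in the highest range.

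When comparison spots of KPC-shV were weighted to the hypoxia level of the neutrophil-rich spots, an alternative chosen after seeing the data, the neutrophil identity log2 ratio was 1.82 and that of inflammatory products 1.45. The ratio of the CXCR2 ligands went from 1.45 to 0.71, that of granule genes from 1.02 to 0.27, and those of glycolysis and tumor epithelium to 0.10 and 0.00. Of the granule genes, Lcn2, Ltf and Padi4, which dominate the sum, were at 0.29, 0.32 and -0.20. The scarce ones lay between 1.58 for Elane and 5.18 for Camp. Genes at least 2-fold higher numbered 35 with this weighting, 26 of them among the 170 without it. The largest log2 ratios were those of Apoa4, at 4.97, and Dpt, at 3.57, which are on none of the lists. The hemoglobin gene Hbb-bs was among the 35 as well, at 2.51. They also included G0s2, Csf3r, Il1r2, Il1b, Ccl4, Acod1, Cxcl3, Cd274 and Itgam. The genes named here were under 50 CPM in the weighted comparison spots, so they met that limit through the neutrophil-rich spots alone. Nothing is therefore read from their count, and the weighting left a hypoxia log2 ratio of 0.27. The weighting rests on few spots at the top, because 22 of the 1237 comparison spots had 4000 CPM or more of hypoxia genes.

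In KPC-shV the neutrophil-rich spots had more of the tumor epithelium list and less of the stromal lists than the comparison spots. The tumor epithelium list was at 7857 against 5844 CPM, with Krt7 at 3671 against 2600 CPM, and 431 of the 440 spots (98.0%) had at least 1000 CPM of it, beside 1123 of the 1237 comparison spots (90.8%). Fibroblast genes were at 1553 against 8633 CPM, a log2 ratio of -2.47 (-2.49 to -2.46), and 6 of 6 genes at 50 CPM were at least 2-fold lower, beside a background of 4.36% (219 of 5021 genes), 3 of them at that limit through the comparison spots alone. Col1a1 was at 566 against 2931 CPM. Endothelial genes were at 64.2 against 148 CPM, with Cdh5 at 18.9 against 45.6 CPM. All 8 fibroblast and all 6 endothelial genes were below their comparison level, while 48.9% of all genes at 50 CPM were above theirs. The 9 neutrophil-rich spots with under 1000 CPM of epithelial genes differed from the others, with 9731 CPM of fibroblast genes and 3120 CPM of Hbb-bs.

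Most lists of other leukocytes were lower in the neutrophil-rich spots of KPC-shV than in the comparison spots, and the monocyte and B cell lists were not. The macrophage list was at 538 against 2099 CPM, a log2 ratio of -1.96 (-2.0 to -1.93), with 5 of 5 genes at 50 CPM at least 2-fold lower, beside 4.36% of all genes, 1 of them at that limit through the comparison spots alone. C1qa, a complement subunit, was at 170 against 699 CPM and the growth factor receptor gene Csf1r at 74.0 against 204 CPM. Genes of MHC class II, which present antigen to helper T cells, were at 1389 against 6589 CPM, and 4 of 4 genes at 50 CPM were at least 2-fold lower, against the same background. The T cell list was at 8.13 against 24.9 CPM, with Cd3e at 2.08 against 7.29 CPM, from 32 UMIs over the 440 spots. The monocyte list went the other way, at 2334 against 1741 CPM, but 2308 CPM of it came from Plac8, which epithelium can also make, while Ccr2 was at 7.67 against 64.2 CPM and F13a1 at 13.8 against 41.0 CPM. Interferon-stimulated genes did not move as a group: Irf7 and Rsad2 had log2 ratios of 0.96 and 1.29, and the interferon-gamma chemokines Cxcl9 and Cxcl10 of -2.03 and -1.08. The eosinophil, basophil and mast cell list was at 186 against 330 CPM, of which Mcpt8, a basophil protease, made up 168 and 306 CPM. When comparison spots were weighted to the hypoxia level of the neutrophil-rich spots, which left a hypoxia log2 ratio of 0.27, the log2 ratios were -1.41 for fibroblast, -0.84 for MHC class II and -0.66 for macrophage genes, and 3 leukocyte lists and the interferon-stimulated list turned, T cell genes from -1.62 to 0.14, cytotoxic lymphocyte genes from -0.74 to 0.22, plasma cell genes from -0.45 to 0.08 and interferon-stimulated genes from -0.68 to 0.21. The endothelial log2 ratio went from -1.20 to -0.06.

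**Figure D4:**
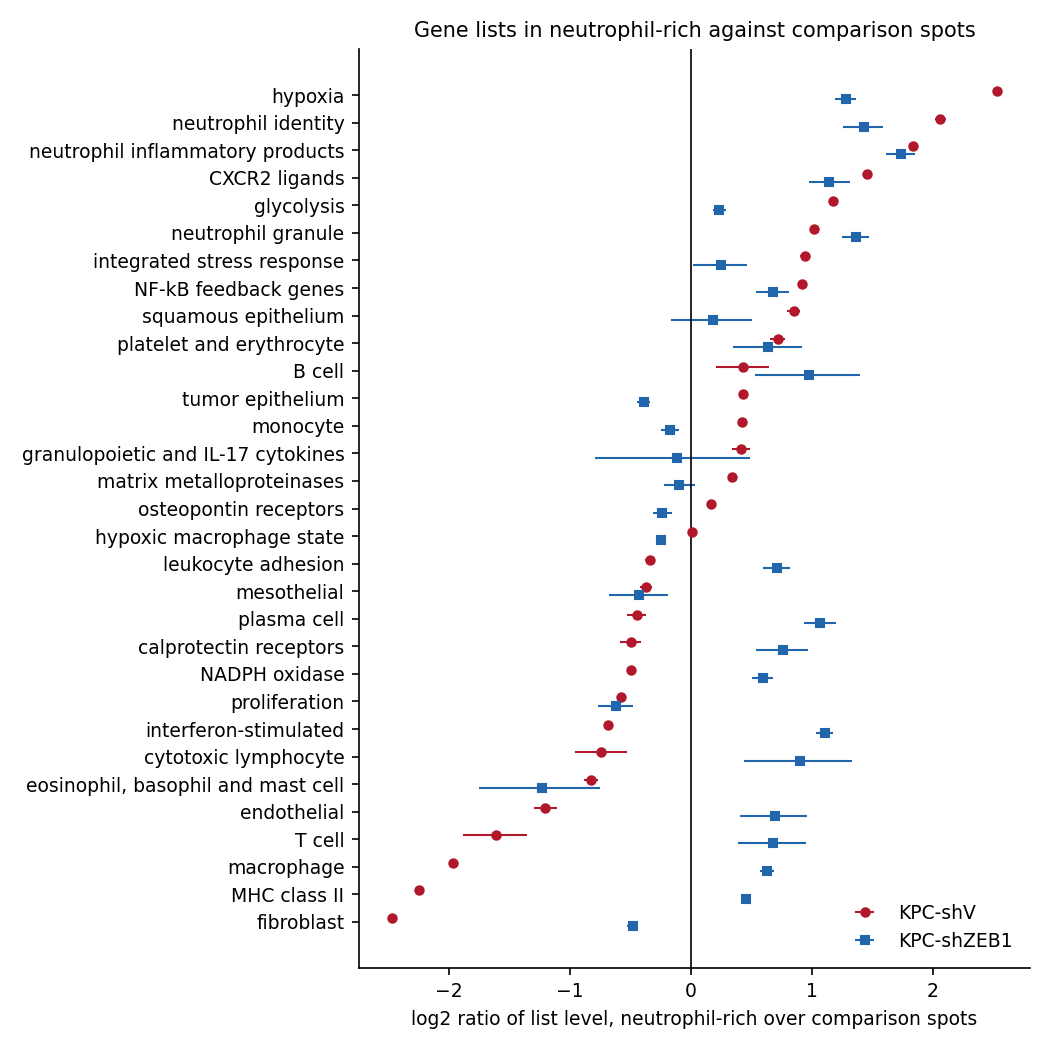
Log2 ratio of neutrophil-rich over comparison spots (x axis) for each gene list (y axis) in both libraries, with 95% exact intervals for counting error as error bars. The neutrophil, CXCR2 ligand and hypoxia lists lie right of 0 in both libraries, and the macrophage, T cell, endothelial and MHC class II lists lie left of 0 in KPC-shV and right of 0 in the library labelled KPC-shZEB1, where these 4 lists fell to between -0.19 and -0.11 with both kinds of spots held to at least 1000 CPM of epithelial genes.

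The neutrophil-rich spots of KPC-shV also differed among themselves by hypoxia level. Over the 440 spots the identity list had a rank correlation of 0.42 with hypoxia, and inflammatory products of 0.69 with the chosen level and 0.60 with hypoxia. The 220 spots at or above the median hypoxia level had 602 CPM of the identity list and 1228 CPM of inflammatory products, and the 220 below it had 360 and 658 CPM. CXCR2 ligands were in the opposite order, at 860 and 1136 CPM, as were granule genes, at 892 and 1292 CPM, and macrophage genes, at 406 and 622 CPM. Median depth was 25258 UMIs in the more hypoxic and 42939.5 UMIs in the less hypoxic spots, and its part in these differences was not tested. The 25 spots with under 1000 CPM of hypoxia genes still had 336 CPM of the identity list, against 109 CPM in comparison spots, with 6728 CPM of fibroblast genes.

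The 17 neutrophil-rich spots labelled KPC-shZEB1 fell into unlike kinds. In 3 of them, with 16783, 17734 and 24908 UMIs, hypoxia genes were at 10318 to 11738 CPM and the tumor epithelium list at 11402 to 15056 CPM, and their summed inflammatory products reached 3281 CPM. In 13 spots hypoxia genes were under 1000 CPM, with a summed level of 520 CPM that is below the 651 CPM of the comparison spots. The hypoxia log2 ratio of 1.28 (1.19 to 1.36) in this library thus came from those 3 spots and 1 spot with 1937 CPM. The median spot had 553 CPM, against a median of 465 CPM in comparison spots, and 58.8% of the 17 spots lay above it. Epithelial genes were under 1000 CPM in 7 spots, where fibroblast genes were at 14606 CPM, macrophage genes at 7515 CPM and MHC class II genes at 24868 CPM. The 3 spots with the highest S100a8 and S100a9, at 2270 to 3544 CPM, were all among these 7 and had 8331 to 10555 CPM of macrophage genes, 33886 to 34591 CPM of MHC class II genes and 36 to 62 UMIs of Camp and Ngp.

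Summed over the 17 spots, several lists of other leukocytes were above the comparison spots of their library. Macrophage genes were at 3695 against 2394 CPM, a log2 ratio of 0.63 (0.57 to 0.68), and MHC class II genes at 14257 against 10415 CPM. T cell genes were at 153 against 95.9 CPM and interferon-stimulated genes at 2517 against 1170 CPM, led by Cxcl9 at 1610 against 861 CPM. The median spots had 1138 and 792 CPM of interferon-stimulated genes, and the 4 neutrophil-rich spots with 50000 UMIs or more had 4087 CPM. Plasma cell genes were at 663 against 316 CPM, with the antibody joining chain gene Jchain at 354 against 132 CPM. The highest neutrophil-rich spot had 4700 CPM of plasma cell genes, and the medians were 274 and 169 CPM. The epithelial list was lower, at 4273 against 5610 CPM. Fibroblast genes were at 6300 against 8801 CPM, with Dcn at 291 against 200 CPM and Col1a1 at 1579 against 3012 CPM. The median spots were in the opposite order, at 5539 against 4878 CPM of fibroblast genes. When neutrophil-rich and comparison spots were both held to at least 1000 CPM of epithelial genes, 10 and 833 spots remained, and the identity list was at 358 against 147 CPM, a log2 ratio of 1.28 (1.05 to 1.5). Macrophage genes were then at 1767 against 2017 CPM (-0.19, -0.29 to -0.09) and MHC class II genes at 8904 against 9590 CPM (-0.11, -0.15 to -0.06). Plasma cell genes stayed above 0 at 0.62 (0.36 to 0.87) and interferon-stimulated genes at 1.32 (1.25 to 1.40). For T cell, B cell and endothelial genes the intervals then covered 0. Over all 17 spots the monocyte list stood at -0.17 (-0.25 to -0.10) and the eosinophil, basophil and mast cell list at -1.23 (-1.76 to -0.75). Plac8 gave 1967 of the 2159 CPM of the monocyte list in these spots.

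**Figure D5:**
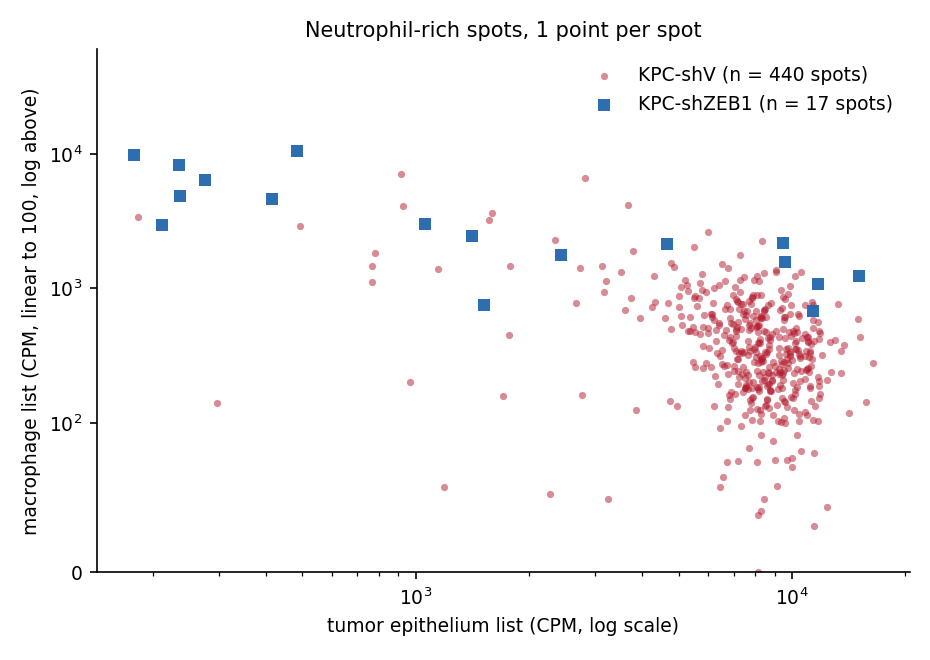
Summed macrophage level (y axis, CPM, linear to 100 and logarithmic above) against summed tumor epithelium level (x axis, CPM, logarithmic), with 1 point for each neutrophil-rich spot of each library. Of the 440 spots of KPC-shV, 431 lie at 1000 CPM or more of epithelial genes, and 7 of the 17 spots labelled KPC-shZEB1 lie under 1000 CPM with a summed macrophage level of 7515 CPM.

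The remaining lists were less even. In KPC-shV the squamous epithelium list was at 270 against 150 CPM, of which the envelope gene Sprr1a gave 227 CPM, and the matrix metalloproteinase list at 1113 against 879 CPM, led by the macrophage elastase gene Mmp12. Cytotoxic lymphocyte genes were at 13 against 21.8 CPM, B cell genes at 14.6 against 10.8 CPM (8.52 CPM without the 9 spots low in epithelial genes), plasma cell genes at 98.5 against 134 CPM and mesothelial genes at 249 against 321 CPM. Platelet and erythrocyte genes were at 185 against 113 CPM, and without the 9 spots low in epithelial genes the 431 others had 132 CPM. With comparison spots weighted to the depth of the neutrophil-rich spots, the log2 ratio of this list turned from 0.72 to -0.35 and that of B cell genes from 0.43 to -0.54. The hypoxic macrophage list, made up mostly of Spp1, was at 8927 against 8893 CPM, and the osteopontin receptor list at 3038 against 2713 CPM. Cytotoxic lymphocyte genes were at 63.0 against 33.8 CPM in the library labelled KPC-shZEB1, stress response genes at 238 against 201 CPM, and the proliferation list at 567 against 874 CPM, a log2 ratio of -0.62 that turned to 0.25 when no spot was left out for acinar genes. The acinar genes used to leave spots out were still at 2312 against 1346 CPM there and at 93.6 against 217 CPM in KPC-shV. Their part in the other values was not tested.

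Set directly side by side, the neutrophil-rich spots of the libraries had like levels of the identity list, 441 CPM labelled KPC-shZEB1 and 454 CPM in KPC-shV (log2 ratio -0.04, -0.21 to 0.12). Both sets were cut at the same S100a8 and S100a9 level, which the identity list followed in KPC-shV. The likeness is therefore not read as a result. The comparison spots differed by more, 164 against 109 CPM. CXCR2 ligands were at 421 against 1028 CPM, a log2 ratio of -1.29 (-1.46 to -1.12), beside -0.98 (-1.0 to -0.95) in the comparison spots. The median spot was at 121 against 918 CPM in the neutrophil-rich and 115 against 173 CPM in the comparison spots, so the sums and the typical spot differ in how they divide this difference. Hypoxia genes were at 1579 against 4305 CPM, -1.45 (-1.53 to -1.36) beside -0.19 (-0.21 to -0.17) in comparison spots. Macrophage genes stood at 2.78 (2.72 to 2.84) beside 0.19, fibroblast genes at 2.02 (1.97 to 2.07) beside 0.03, MHC class II genes at 3.36 (3.32 to 3.39) beside 0.66 and T cell genes at 4.24 (3.85 to 4.62) beside 1.94. Between the 10 and 431 neutrophil-rich spots with at least 1000 CPM of epithelial genes, the log2 ratios were 1.76 for macrophage, 0.57 for fibroblast, 2.72 for MHC class II and 3.29 for T cell genes, -0.75 for CXCR2 ligands and -0.98 for hypoxia genes. Of 5252 genes with at least 50 CPM in the neutrophil-rich spots of either library, 541 were at least 2-fold higher (10.3%) and 408 at least 2-fold lower (7.77%) in those labelled KPC-shZEB1.

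The largest of these differences lay in antibody genes. Igkv19-93, Igkv12-89, Iglc1 and Ighj1 had log2 ratios from 8.09 to 11.6 between the neutrophil-rich spots, and Igkv19-93 was at 1951 CPM in those labelled KPC-shZEB1 against 71.5 CPM in their comparison spots. Immunoglobulin segments resemble each other closely, so a probe for one may read others. Cfd, which encodes complement factor D, an abundant product of fat, was at 307 against 0.91 CPM. The most different in the other direction were Slc4a11, a membrane transporter, at 2.87 against 65.6 CPM from 2 UMIs, Ccbe1, Mcpt8, the peptide hormone gene Uts2, and the integrin gene Itgb6, with log2 ratios from -4.52 to -3.20.

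Across all genes, 170 of 5021 were at least 2-fold higher and 219 at least 2-fold lower in the neutrophil-rich spots of KPC-shV, with a median log2 ratio of -0.01. In the library labelled KPC-shZEB1, 146 of 5023 genes (2.91%) were at least 2-fold higher and 96 (1.91%) at least 2-fold lower, with a median of -0.05. The libraries shared 31 genes on the higher side, 18.2% of the KPC-shV set and 21.2% of the other, and 23 on the lower side, 10.5% and 24.0%. Of the genes lower in KPC-shV, 15 were at least 2-fold higher in the library labelled KPC-shZEB1, and 1 gene had the reverse pattern. A total of 1772 of the 5021 genes kept their side of 0 in both libraries and under every alternative but those chosen after seeing the data.

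Among these 1772 genes the 10 with the largest log2 ratios in KPC-shV were G0s2, Adm, Il1f9, Ccl4, Pgf, Hilpda, Mxd1, Acod1, Cxcl3 and Egln3. Il1f9, which encodes the cytokine interleukin-36 gamma, was at 68.6 against 6.03 CPM in KPC-shV and at 30.1 against 4.18 CPM in the library labelled KPC-shZEB1. Pgf, placental growth factor, was at 73.1 against 7.40 CPM, the lipid droplet gene Hilpda at 601 against 82.2 CPM, and Mxd1, a repressor of Myc targets that is abundant in mature neutrophils, at 358 against 49.7 CPM. Of the 10, G0s2 is on the neutrophil identity list, and Ccl4 and Acod1 are on that of inflammatory products. Adm and Egln3 are on the hypoxia list, and Cxcl3 is a CXCR2 ligand. Several, such as Il1f9, Pgf and Mxd1, were under 50 CPM in comparison spots of KPC-shV and met that limit through neutrophil-rich spots alone. No theme is therefore read from the set. The 10 with the lowest ratios were Ighg2b, Stc1, Itm2a, Rhox5, Eln, Col1a2, Col3a1, Rgs5, Mgp and Jam2. Ighg2b, an antibody heavy chain, was at 2.86 against 62.0 CPM, Eln, which encodes elastin, at 8.91 against 59.3 CPM, and Rgs5, a pericyte gene, at 10.5 against 60.0 CPM. The homeobox gene Rhox5 was lower in both libraries, at 20.5 against 248 CPM and at 24.4 against 216 CPM. Stc1 was at 1.43 CPM from 1 UMI in the neutrophil-rich spots labelled KPC-shZEB1, so that its ratio there has no firm size.

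Spots chosen by other neutrophil genes overlapped with these to unlike extents in the libraries. When as many spots were taken by the summed level of Csf3r, Cxcr2 and G0s2, 279 of 440 (63.4%) were neutrophil-rich by S100a8 and S100a9 in KPC-shV and 3 of 17 (17.6%) in the library labelled KPC-shZEB1. The spots so chosen in KPC-shV had a hypoxia log2 ratio of 2.32 and a CXCR2 ligand log2 ratio of 1.08. Their log2 ratios for stroma and other leukocytes were much nearer 0 than in the spots chosen by S100a8 and S100a9, at -0.36 in place of -2.47 for fibroblast, -0.44 in place of -1.96 for macrophage and -0.65 in place of -2.25 for MHC class II genes, and 27 genes in place of 219 were at least 2-fold lower. This choice also changed the comparison spots, which were 1183 in place of 1237.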

How the data were processed

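The 2 deposited matrices hold UMI counts per gene and spot, which the authors made with Space Ranger 2.0.1 on mm10, per the submitters' processing notes, from spots over tissue. Tumors were frozen, sectioned and fixed in methanol, and probes were captured on a CytAssist slide. No column of another sample was used. The images and the positions of the spots did not enter the computation. Each gene is read by its own probes, so levels were not compared between genes, and probe counts cannot show isoforms. Of 19465 features, 11 repeated symbols were summed, leaving 19454 symbols. Symbols of the lists not measured included Ccnb1, Cxcl2, Eno1, Ero1a (Ero1l was present), Hba-a1, Isg15, Krt18, Ldha, Ly6c2 and Tpi1. Some items are not reported here.

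UMIs were summed over the spots of each kind and divided by their total. Levels have exact Poisson intervals, shares Clopper-Pearson intervals and log2 ratios exact conditional binomial intervals, all at 95%. They cover counting error only, and with 1 library per group no test was run. Genes with at least 50 CPM in either kind of spot were called at a 2-fold ratio. The text names the genes of the lists, the 10 highest and 10 lowest ratios of KPC-shV among genes at 50 CPM on 1 side of 0 in both libraries and in every alternative but those chosen after seeing the data, 5 each way between the neutrophil-rich spots, and Spp1, Cd44, Cd274, Zeb1 and Cxcl16. The members and the lists were chosen with earlier results of these data known. Alternatives changed the CPM and UMI limits, the acinar limit, the thinning depth, the comparison spots and the summary. Gene positions are from GENCODE and promoters from RefSeq. The computation was tested on simulated data. Python 3.11.15, numpy 2.4.6, scipy 1.17.1, pandas 2.3.3 and matplotlib 3.10.9 were used.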

Additional observations from a re-analysis of the deposited data

Results flagged for a closer look

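For 13 gene lists the ratio of neutrophil-rich over comparison spots was above 0 in one library and below 0 in the other, with intervals for counting error that left 0 out in both. With 1 library per group the difference between the libraries was not tested. The difference of the log2 ratios, labelled KPC-shZEB1 minus KPC-shV, was 2.70 for MHC class II, 2.59 for macrophage, 2.29 for T cell, 1.90 for endothelial, 1.79 for interferon-stimulated and 1.64 for cytotoxic lymphocyte genes. It was 1.52 for plasma cell genes, 1.25 for the calprotectin receptor list, 1.09 for NADPH oxidase and 1.05 for leukocyte adhesion. Most of the calprotectin receptor sum was the adaptor gene Myd88. In the other direction it was -0.82 for tumor epithelium, -0.59 for the monocyte list and -0.40 for osteopontin receptors. The monocyte sum was mostly Plac8. Its median gene went the other way, at -1.57 in KPC-shV and 0.27 in the library labelled KPC-shZEB1. The opposite sides did not hold under every setting. With comparison spots weighted by hypoxia in both libraries, the hypoxia log2 ratio was 0.27 in KPC-shV and 0.68 in the library labelled KPC-shZEB1. By sign alone, 5 of the 13 lists then still lay on opposite sides, which were tumor epithelium, macrophage, monocyte, endothelial and MHC class II. Of these, tumor epithelium was at 0.00 and endothelial genes at -0.06 in KPC-shV. Neutrophil-rich and comparison spots were also both held to at least 1000 CPM of epithelial genes, which was not applied to the tumor epithelium list. By sign alone, 8 lists then lay on opposite sides, and the macrophage, T cell, endothelial and MHC class II lists did not. Of these 8, monocyte genes were at -0.002 and osteopontin receptors at -0.02 in the library labelled KPC-shZEB1, from 10 spots. With spots chosen by Csf3r, Cxcr2 and G0s2, 12 of the 13 lists lay on opposite sides by sign, all but leukocyte adhesion.

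Spots under 10000 UMIs entered no comparison. In KPC-shV, 220 of 390 such spots (56.4%, 51.3% to 61.4%) had at least 500 CPM of S100a8 and S100a9, against 0 of 13 in the library labelled KPC-shZEB1. These 220 spots had a median of 4697 UMIs, 2085 CPM of the neutrophil identity list, 5263 CPM of hypoxia genes, 1233 CPM of CXCR2 ligands and 626 CPM of macrophage genes. The other 170 shallow spots had 238 CPM of the identity list, 421 CPM of hypoxia genes and 34989 CPM of fibroblast genes.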

How the results depend on the processing

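Values are given for KPC-shV first and the library labelled KPC-shZEB1 second where both moved. Identity, ligand and hypoxia values are log2 ratios. With a limit of 300 CPM the share of neutrophil-rich spots was 20.1% and 2.66%, identity 1.65 and 0.96, ligands 1.55 in the second library, hypoxia 2.18 and 0.50, and 96 genes were higher. With 1000 CPM the share was 5.97% and 0.270%, identity 2.76 and 2.02, ligands 1.38 and, from 6 spots, -1.81, hypoxia 2.93 and 1.05, and 263 genes were higher. With 250 CPM of each gene the share in KPC-shV was 7.97%, identity 2.37 there, ligands 0.52 in the second library, and hypoxia 2.67 and 1.5. A minimum of 5000 UMIs gave KPC-shV a share of 15.3%, identity 2.25 and hypoxia 2.55. A minimum of 20000 gave a share of 9.49%, identity 1.92 and hypoxia 2.46, and hypoxia 0.71 in the second library. Without the acinar limit, identity was 2.39 in the second library, ligands 1.58 and 2.05, and hypoxia 2.63 and 1.96. Thinned to 10000 UMIs, the share was 14.4% and 1.53%, identity 1.80 and 0.75, ligands 1.27 and 1.39, hypoxia 2.19 and 0.64, and 109 genes were higher. Against all other eligible spots, identity was 1.69 and hypoxia 1.84 in KPC-shV, ligands 0.79 and 0.70, with 107 genes higher and 130 lower. Weighted by depth, identity was 1.48 in KPC-shV, ligands 2.12 and 1.49, hypoxia 2.50 and 1.14, with 280 genes higher and 486 lower. As a mean over spots, identity was 2.12 and 1.66, ligands 1.62 and 0.67, and hypoxia 2.73 and 1.82. The median gene as scale gave ligands 1.49 and hypoxia 2.57 in KPC-shV. Without the 10% of spots highest in S100a8 and S100a9, identity was 1.92 and hypoxia 2.51 in KPC-shV, and ligands 1.31 and hypoxia 1.44 in the second library. Chosen by Csf3r, Cxcr2 and G0s2, spots had ligands at 1.08 in KPC-shV, hypoxia at 2.32 and 1.18, and 27 genes lower. Weighted by hypoxia, chosen after seeing the data, KPC-shV had identity 1.82, ligands 0.71, 35 genes higher and 30 lower, and 9 lists changed side of 0, among them T cell genes at 0.14, cytotoxic lymphocyte at 0.22, plasma cell at 0.08, interferon-stimulated at 0.21, NADPH oxidase at 0.11, leukocyte adhesion at 0.47, calprotectin receptors at 0.30 and osteopontin receptors at -0.05. With at least 1000 CPM of epithelial genes in the neutrophil-rich spots but no such limit on comparison spots, also chosen after seeing the data, the second library had identity 1.12, ligands 1.68, hypoxia 1.76 and plasma cell genes -0.15. With that limit on both kinds of spots, chosen likewise, identity was 2.15 in KPC-shV, ligands 1.41 and 1.53, hypoxia 1.66 in the second library, and 2 and 6 lists changed side of 0. Over up to 16 alternatives, 11 of 31 lists changed side at least once in KPC-shV and 19 of 31 in the second library, where fibroblast genes reached 0.51 with 1000 CPM and, without the acinar limit, tumor epithelium 0.44 and proliferation 0.25. Neutrophil identity and hypoxia, each with 15 alternatives, and glycolysis changed side in neither. The causes were not tested. No paired analysis was possible because each group has 1 library. Intervals of the 17 spots rest on few UMIs per gene.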
